A study of Mus musculus with 5 samples.

Results

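The microRNAs described here come from the imprinted Dlk1-Dio3 locus of the mouse, and 5 of the 171 microRNA probes on the arrays carry their numbers: 1org-127 and 1org-136 (miR-127 and miR-136, the Rtl1 antisense pair) and 1org-134, 1org-154 and 1org-300 (miR-134, miR-154 and miR-300, called the Mirg group). They were chosen by the place of their genes and not by a measured value, though with earlier results of these data known. RNA of activated CD4+25- T cells, helper T cells without CD25, was set against RNA of the same cells without activation on 5 arrays of 2 channels each. Cells activated overnight had 1 array, with the activated RNA in Cy5. Cells activated for 3 days and for 10 days had 2 arrays each, 1 with the activated RNA in Cy5 and 1 with it in Cy3, and arrays are called Cy5 or Cy3 arrays by the dye of the activated RNA. The unactivated cells are called naive, and the sources used here name no mouse strain, age or means of activation. No label says whether the 2 arrays of a dye pair came from separate cultures. The p-values therefore cover the spread between these arrays alone, and that spread may be technical.

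In this locus the protein-coding genes Dlk1, Rtl1 and Dio3 are known to be expressed from the paternal chromosome, and a long row of non-coding RNAs, among them Meg3, the Rtl1 antisense transcript, Rian and Mirg, from the maternal one. The non-coding strand carries one of the largest groups of microRNAs in the genome, known mainly from embryo, placenta and brain. MiR-127 and miR-136 lie opposite the coding sequence of Rtl1, a retrotransposon-derived gene, and as their perfect complements they direct cleavage of its mRNA. MiR-134, known from neurons for its action on dendritic spines, and miR-154 and miR-300 belong to the large cluster that runs from miR-379 to miR-410 toward Mirg.

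The mature sequences are shown because a probe reads a sequence, and because the pair and the group have to be told apart at that level. They are RefSeq's for GRCm38.p6, 5′ to 3′, with the seed (bases 2 to 8) in capitals. All lie on the plus strand of chromosome 12, and both arms are given since the sources used here do not name the arm that each probe reads.
mmu-miR-127-5p: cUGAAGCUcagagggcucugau
mmu-miR-127-3p: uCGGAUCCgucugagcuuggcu
mmu-miR-136-5p: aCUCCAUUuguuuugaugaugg
mmu-miR-136-3p: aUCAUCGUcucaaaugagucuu
mmu-miR-300-5p: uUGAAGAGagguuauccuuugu
mmu-miR-300-3p: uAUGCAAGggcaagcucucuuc
mmu-miR-134-5p: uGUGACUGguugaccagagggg
mmu-miR-134-3p: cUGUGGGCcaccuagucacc
mmu-miR-154-5p: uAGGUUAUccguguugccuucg
mmu-miR-154-3p: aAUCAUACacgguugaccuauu

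No seed was shared between these sequences. The longest run of letters in common was AGGUUAUCC, 9 bases that begin at base 2 of miR-154-5p and at base 9 of miR-300-5p, and over all 45 pairs of sequences the median shared run was 4 bases. GGUUGACC, 8 bases, was common to miR-134-5p and miR-154-3p. The longest run shared across the pair and the group was CAGAGGG, 7 bases, in miR-127-5p and miR-134-5p. Among 1679 mature mouse names, the sequence closest to miR-300-3p was miR-381-3p of the same cluster, at an edit distance of 3 bases, and the closest to miR-154-3p was miR-369-3p, at 4 bases. For the miR-127 arms the closest sequences lay 7 and 8 bases away, and for those of miR-136 they were the arms of miR-3071, at 6 and 7 bases. The Mir3071 hairpin overlaps that of Mir136 on the opposite strand.

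The hairpins stand in 2 neighbourhoods. Mir127 (chr12:109592846-109592915) and Mir136 (chr12:109595327-109595388) are separated by 2411 bases and lie within the annotated bounds of Rtl1. Mir300 (chr12:109724313-109724391), Mir134 (chr12:109734139-109734209) and Mir154 (chr12:109738433-109738498) follow in that order, with 9747 bases between Mir300 and Mir134 and 4223 between Mir134 and Mir154. Of the 3 in the Mirg group, Mir154 lies inside the Mirg gene as annotated, while Mir134 and Mir300 lie ahead of its first base. The GEO annotation of the arrays names the gene for 3 of the 5 probes (miR-136, miR-154 and miR-300), and 1org-127 and 1org-134 are read from their numbers.

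The deposited values are log ratios, read as log2, so a value of 1 stands for 2-fold. They hold no level, and the level of one microRNA cannot be set against that of another. Cy5 over Cy3 was taken as their direction and the sign was turned on the 2 arrays that held activated RNA in Cy3, so that positive values mean more in activated cells. That direction was taken from the usual order of such ratios and is not stated. The array titles name activated cells first in both dye orientations, so they do not settle it. With Cy3 as the numerator every sign here would turn. Read as Cy5 over Cy3, the day 3 mean of 1org-155, the probe for the activation-induced miR-155, ranked at 4 of 171 from the highest. That of 1org-150, numbered as the resting-lymphocyte miR-150, ranked at 171. Array medians over all microRNA probes ran from -1.75 overnight to 1.42 on the day 3 Cy3 array, so values are given both as deposited and with the median of each array taken off (centred).

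At day 3 both probes of the Rtl1 antisense pair and 1org-300 of the Mirg group were at least 2-fold higher in activated cells as deposited, with means of 1.94 for the pair and 0.93 for the group. Relative to the array medians these means were 1.13 and 0.12, and on the day 3 Cy3 array alone the pair, at -0.01, was below the group, at 0.25. MiR-127 was the member farthest from 0 at day 3, and the only 1 of the 5 that stayed at least 2-fold higher after centring. At day 10 none of the 5 was 2-fold from 0 in either setting. Overnight all 5 were lower as deposited, as were most probes on that array, and after centring all 5 lay near the median of that single array.

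**Figure D1:**
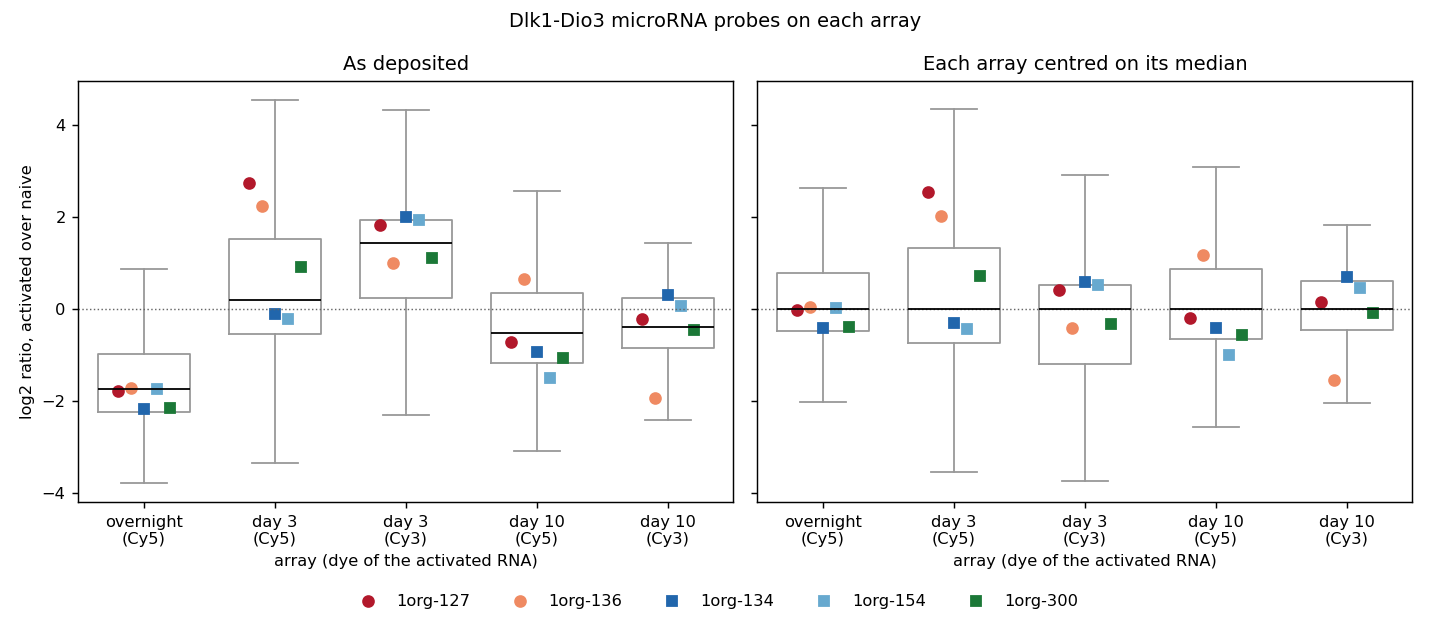
Log2 ratio of activated over naive RNA for the 5 probes (circles for the Rtl1 antisense pair, squares for the Mirg group) on each of the 5 arrays, as deposited on the left and centred on the array median on the right; boxes show the quartiles and median of all 171 microRNA probes and whiskers the farthest probes within 1.5 box lengths. The pair stands above the box on the day 3 Cy5 array, at 2.73 and 2.23 as deposited, while 1org-134 and 1org-154 are just below the median there and above it on the day 3 Cy3 array.

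Probe 1org-127 stood at 2.73 on the day 3 array with activated RNA in Cy5 and at 1.82 on the one with it in Cy3. Its day 3 mean was 2.27 ± 0.45, where ± gives how far each of the 2 arrays of opposite dye lay from their mean (n = 2), and is not a standard error. Both arrays were high, and the mean ranked at 23 of 171 from the highest. After centring the same arrays stood at 2.53 and 0.40, with a mean of 1.46, so the height above the array median was carried mostly by the Cy5 array.

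Probe 1org-136 stood at 2.23 and 1.01 on these arrays, with a mean of 1.62 ± 0.61 and a rank of 35. After centring it was at 2.03 on the Cy5 array and at -0.41 on the Cy3 array. It therefore lay above the median of 1 array and below that of the other, and its centred mean of 0.81 was under 2-fold.

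In the Mirg group, 1org-134 stood at -0.10 with the activated RNA in Cy5 and at 2.00 with it in Cy3 (mean 0.95 ± 1.05). Probe 1org-154 did the same, at -0.23 and 1.93 (mean 0.85 ± 1.08). The sign of both thus turned with the dye, on arrays whose medians were 0.20 and 1.42. Probe 1org-300 was nearly equal on the 2 arrays, at 0.91 and 1.10 (mean 1.00 ± 0.09), just past the 2-fold line as deposited. After centring the 3 means fell together at 0.14, 0.04 and 0.19, in the middle of the day 3 ranks at 73, 82 and 68 of 171.

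By the size rule used here (mean at least 1 from 0 with the same sign on both arrays), 3 of 5 members were higher at day 3 as deposited, both of the pair and 1org-300, against 38% of all microRNA probes (65 of 171). After centring it was 1 of 5, miR-127, against 15.2% of all probes. No member was lower at day 3 in either setting, against 12.9% of all probes as deposited and 19.9% after centring. The median over the 5 members was 1.00 beside 0.83 over all probes, and 0.19 beside 0.02 after centring.

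Limma over the 5 arrays, with a term for each time and for the dye, was fitted on all 171 probes with Benjamini-Hochberg adjustment. It placed 1org-127 higher at day 3 (adjusted p = 5.13e-06) and 1org-136 higher (adjusted p = 0.00128), where 39.2% of all probes were called higher. Probe 1org-300 missed the threshold of 0.05 (adjusted p = 0.0504), as did 1org-134 (adjusted p = 0.0637) and 1org-154 (adjusted p = 0.0952). After centring this limma fit called 1org-127 alone (1.46, SE 0.38, adjusted p = 0.000691), against 18.1% of all probes, and 1org-136 had an adjusted p = 0.0861. At day 3 the moderation gave every probe the same SE, 0.45 as deposited and 0.38 after centring, which is not the spread of the probe's own arrays. With nearly as many terms as arrays, this SE was pooled over the 171 probes, which share the 5 arrays. The fit takes the arrays of a dye pair singly, so its small p-values cannot be read as spread between cultures.

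At day 10 the means were small, and for 3 of the 5 probes the sign turned with the dye. Probe 1org-127 stood at -0.71 and -0.22 (mean -0.47 ± 0.25), and 1org-300 at -1.07 and -0.47 (mean -0.77 ± 0.30), both negative on both arrays as deposited. Probe 1org-136 was at 0.65 with the activated RNA in Cy5 and at -1.93 with it in Cy3 (mean -0.64 ± 1.29), the widest gap of the 5. For 1org-134 the values were -0.93 and 0.31, and for 1org-154 they were -1.51 and 0.07, with means of -0.31 ± 0.62 and -0.72 ± 0.79.

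No member met the size rule at day 10 in either direction, against 9.94% of all probes higher and 17% lower as deposited, and 14.6% and 4.09% after centring. Centred means lay between -0.32 (1org-300) and 0.14 (1org-134), and miR-127 was at -0.02. The limma fit over 5 arrays called none of the 5 at day 10 (7.02% of all probes higher and 11.7% lower), with the smallest adjusted p = 0.211 for 1org-300. None of the 5 had an unadjusted p below 0.05 at day 10 either.

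**Figure D2:**
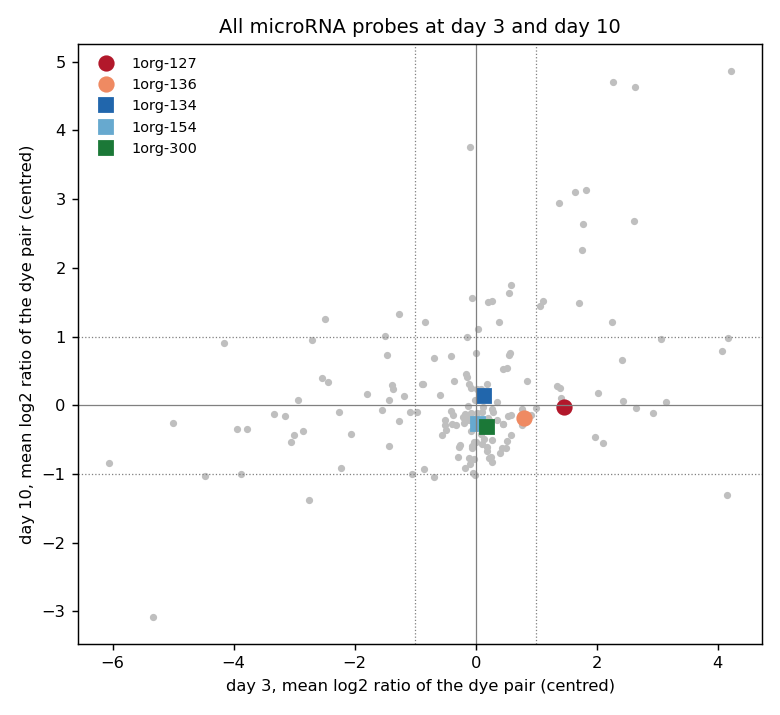
Mean log2 ratio of the dye pair at day 3 (horizontal) and at day 10 (vertical) for all 171 microRNA probes, each array centred on its median, with the 5 members in colour, solid lines at 0 and dotted lines at 2-fold in either direction. Probe 1org-127 is past 2-fold at day 3 (1.46) and at -0.02 at day 10, 1org-136 is at 0.81 and -0.19, and the Mirg group lies in the dense middle.

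From day 3 to day 10 the pair and miR-300 were lower by more than 2-fold as deposited, without overlap between the 2 dye pairs. The difference of day 10 minus day 3 was -2.74 for 1org-127, -2.25 for 1org-136 and -1.77 for 1org-300. For 1org-134 and 1org-154 it was -1.26 and -1.57, with overlapping pairs. These 3 of 5 members compare with 41.5% of all probes lower by the same rule, and the median difference over all probes was itself -1.22.

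After centring most of these differences were small. Probe 1org-127 still differed by -1.48 without overlap, at 2.53 and 0.40 on day 3 and -0.20 and 0.16 on day 10, and was then the 1 member of 5 that met the rule, against 13.5% of all probes. Probe 1org-136 was just short of 2-fold, at -0.996, and its pairs overlapped. The Mirg group had differences of 0.00 for 1org-134, -0.32 for 1org-154 and -0.51 for 1org-300.

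The limma fit over 5 arrays called 4 of 5 members lower at day 10 than at day 3 as deposited, against 43.9% of all probes, with adjusted p = 0.000271 for 1org-127 and adjusted p = 0.0829 for 1org-134, the 1 not called. After centring it called 1org-127 (adjusted p = 0.0261), against 7.6% of all probes, and not 1org-136 (adjusted p = 0.146). With the centred arrays also brought to one spread, limma no longer called 1org-127 between the days (adjusted p = 0.21), while its day 3 call stayed.

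Arrays of one dye orientation can also be set against each other, which cancels a dye effect only as far as it is the same at both times. The dye part of a probe is the turned value of the Cy5 array minus the mean of the dye pair. For miR-127 it was 0.45 at day 3 and -0.25 at day 10, and after centring 1.06 and -0.18. With 1 array per dye and day, a changed dye effect cannot be told apart from other differences between arrays. The change of miR-127 from day 3 to day 10 was -3.44 on the Cy5 arrays and -2.04 on the Cy3 arrays, and after centring -2.73 and -0.24. Both are lower, but the size after centring rests on the Cy5 arrays. For miR-136 the changes were -1.58 and -2.93, or -0.86 and -1.13 after centring, closer between the dyes than those of miR-127. For miR-134 they were -0.12 and 0.12 after centring, and so near 0 with either dye. The rest of the Mirg group was less even. After centring, miR-154 changed by -0.57 on the Cy5 arrays and -0.06 on the Cy3 arrays, and miR-300 by -1.27 and 0.24.

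Overnight the 5 probes lay within a narrow range, from -2.17 (1org-134) to -1.71 (1org-136). Probe 1org-127 was at -1.78, 1org-154 at -1.73 and 1org-300 at -2.15. All 5 were at least 2-fold lower as deposited, as were 73.1% of all probes on an array whose median was -1.75. After centring none of the 5 was 2-fold from 0, and the values ran from -0.42 to 0.04 (21.6% of all probes were higher and 4.09% lower). With 1 array there is no replicate check and the dye effect is not cancelled. With the mean dye part of the later days taken off, 4 of 5 were still 2-fold lower as deposited. The median over all probes was then itself -1.42, with quartiles of -1.89 and -0.93. After centring, with the dye part also taken off, 1org-136 was at -1.25 (rank 164 of 171 from the highest) and 1org-154 at 0.61. The limma fit over 5 arrays, which also takes the dye off, called 3 of 5 lower overnight as deposited, against 38.6% of all probes.

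The overnight array has the same dye orientation as the Cy5 arrays of the later times. Against the day 3 Cy5 array the overnight value differed by -4.50 for miR-127 and by -3.94 for miR-136, and after centring it differed by -2.56 and -1.99. For the Mirg group the centred differences were -0.12 for 1org-134, 0.44 for 1org-154 and -1.11 for 1org-300. The pair was thus near the array median overnight, far above it on the day 3 Cy5 array, and at -0.20 (miR-127) and 1.16 (miR-136) on the day 10 Cy5 array.

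The pair and the group were compared on each array as the mean of the 2 probes minus the mean of the 3, a difference that centring leaves as it is. With the activated RNA in Cy5 it was 0.27 overnight, 2.28 at day 3 and 1.14 at day 10. With the activated RNA in Cy3 it was -0.26 at day 3 and -1.04 at day 10. The mean of the pair was therefore above that of the group on all 3 Cy5 arrays and below it on both Cy3 arrays. The low Cy3 means came mostly from 1org-136, at 1.01 on day 3 and -1.93 on day 10. On these arrays 1org-127 was at 1.82, above the group mean of 1.675, and at -0.22, within the group's range of -0.47 to 0.31. Averaged over the dye pair the difference was 1.01 at day 3 and 0.05 at day 10. The probes were chosen as members of these sets and no test is given.

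**Figure D3:**
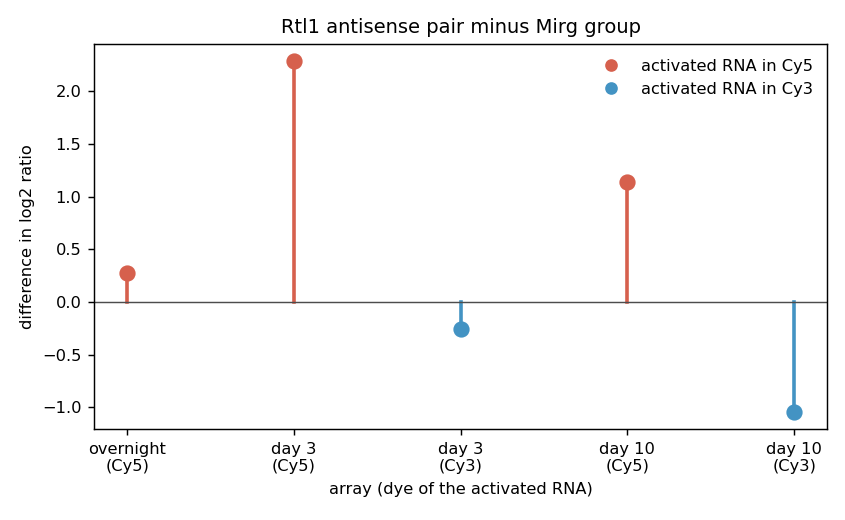
Mean log2 ratio of the Rtl1 antisense pair (1org-127, 1org-136) minus that of the Mirg group (1org-134, 1org-154, 1org-300) on each of the 5 arrays, coloured by the dye of the activated RNA; lines run from 0 to the value. The 3 values with the activated RNA in Cy5 are above 0, up to 2.28 at day 3, and the 2 with it in Cy3 are below 0, at -0.26 and -1.04. The values below 0 come mostly from 1org-136.

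Averaged over the dye pair, the 2 sets were apart probe by probe at day 3 and not at day 10. The lower member of the pair, 1org-136 at 1.62, stood 0.61 above the highest of the group, 1org-300 at 1.00. At day 10 the 2 sets overlapped, with the pair at -0.47 and -0.64 and the group from -0.77 to -0.31. From day 3 to day 10 the pair mean moved down relative to the group mean with either dye, by -1.14 on the Cy5 arrays and -0.78 on the Cy3 arrays. A different probe carried most of it with each dye. On the Cy5 arrays 1org-127 changed by -3.44 and 1org-136 by -1.58, beside -1.36 for the group. On the Cy3 arrays they changed by -2.04 and -2.93, beside -1.71 for the group. The pair mean thus came nearer to the group mean on the Cy5 arrays. On the Cy3 arrays, where it was already below, it went farther from it.

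The dye part was positive on average in the pair (0.53 at day 3 and 0.52 at day 10) and negative in the Mirg group (-0.74 and -0.57). After centring the averages were 1.14 and 0.59 for the pair and -0.13 and -0.50 for the group. Within the group 1org-300 had the smallest dye parts as deposited, -0.09 and -0.30, and after centring they were 0.52 and -0.24. The even pair averages as deposited did not hold for its single probes: 1org-127 went from 0.45 at day 3 to -0.25 at day 10, and 1org-136 from 0.61 to 1.29. Among the members its mean over the 2 days was highest in 1org-136 (0.95, rank 8 of 171 from the highest) and lowest in 1org-154 (-0.93, rank 159) and 1org-134 (-0.83). Across all 171 probes the dye parts of the 2 days correlated at r = 0.76, a description across probes that are not independent replicates and share arrays. With this mean dye part taken off the overnight array, the pair minus the group there changed from 0.27 to -0.91, so the sign of the overnight comparison depends on it.

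**Figure D4:**
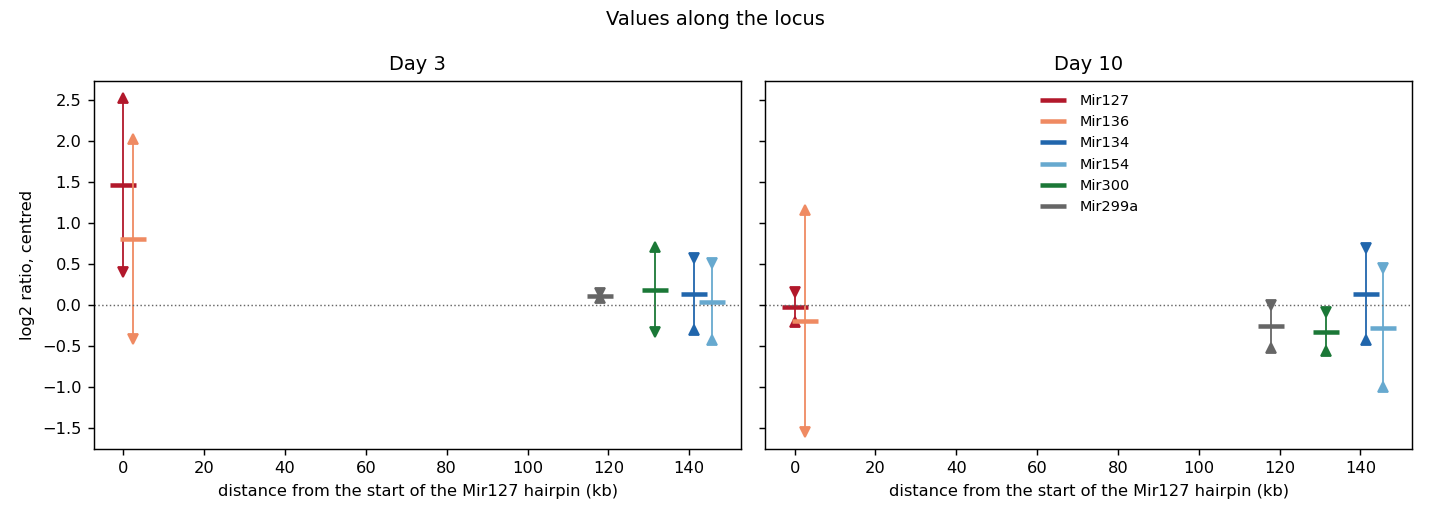
Centred log2 ratio at day 3 (left) and day 10 (right) against distance in kb from the start of the Mir127 hairpin, with bars for the mean of the dye pair, upward triangles for the array with activated RNA in Cy5 and downward triangles for the one with it in Cy3; Mir299a, read from probe 1org-299, is in grey. At day 3 the means are 1.46 and 0.81 in the Rtl1 neighbourhood and between 0.04 and 0.19 at the 4 hairpins of the distant cluster, and at day 10 all 6 lie between -0.32 and 0.14.

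One more microRNA of the locus had a probe. Of 43 other names of the locus listed for this purpose, only miR-299 was found on the arrays (1org-299, annotated as Mir299a), whose gene lies 13612 bases ahead of Mir300 in the same cluster. It stood at 0.28 and 1.57 at day 3 (mean 0.93 ± 0.64), at -1.03 and -0.38 at day 10 (mean -0.70 ± 0.33) and at -2.33 overnight, and its centred means were 0.12 and -0.26. These values are within the range of the Mirg group at both days. By the size rule it was neither higher nor lower at either day.

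Over all 3 times taken as replicates, with dye pairs averaged, limma against 0 called none of the 5 members and none of the 171 probes (3 higher and 8 lower at an unadjusted p below 0.05). The members' means ran from -0.64 for 1org-300 to 0.01 for 1org-127, and their adjusted p-values from 0.852 to 0.992. The 5 arrays agreed in sign for no member: 1org-136 was above 0 on 3 of 5 arrays and the other 4 on 2 of 5.

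Likeness between probes was measured as the root mean square difference of their log2 ratios over the 5 arrays, which centring does not change. Within the Mirg group 1org-134 and 1org-154 differed by 0.35, and only 0.943% of all 14535 probe pairs were closer. Probe 1org-300 differed from them by 0.70 and 0.73. The 2 probes of the Rtl1 antisense pair differed by 1.07, with 23.5% of all probe pairs closer, and 1org-127 was nearer to 1org-300 (0.91) than to 1org-136. The median over all probe pairs was 1.74.

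The other probes nearest to the mean profile of the pair were 1org-185 (0.33), 1org-199-as (0.40) and 1org-152 (0.45). Their day 3 means were 1.57, 1.72 and 1.62, and their day 10 means -0.50, -0.59 and -0.59. Nearest to the Mirg group were 1org-190 (0.18), 1org-144 (0.22), numbered as an erythroid microRNA, and 2org-32 (0.22), followed by 1org-299 (0.23). Within a difference of 0.5 there were 25 of 166 other probes around the Mirg group and 3 around the pair, so the Mirg profile was a common one on these arrays.

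The Mirg group profile was also near that of the array medians. Among 171 probes ordered by distance from the 5 medians, 1org-300, 1org-134 and 1org-154 were at places 18, 23 and 34 from the nearest, and 1org-127 and 1org-136 at 94 and 107. Lists for other tissues were not all alike. The 7 neural probes ranged from -0.05 to 2.15 at day 3 around a median of 0.91 (0.10 after centring), with 2 of 7 higher by the size rule, and were around -0.65 at day 10. The 6 stromal and muscle probes had medians of 0.92 and -0.84, and the 8 epithelial and liver probes 0.69 and -0.93. The 2 myeloid and erythroid probes had medians of 0.39 and -1.05 (-0.42 at day 3 after centring, with 1 of 2 lower). The 8 T lymphocyte probes had medians of -2.12 and -1.08, with 7 of 8 lower at day 3 by the size rule (12.9% of all probes). The 4 activated lymphocyte probes went the other way at day 3. Their medians were 3.85 and -0.02, with 4 of 4 higher at day 3 (38% of all probes). At day 10 the size rule called lower 3 of 7 neural, 1 of 6 stromal and muscle and 3 of 8 epithelial and liver probes. It also called lower 1 of 2 myeloid and erythroid and 4 of 8 T lymphocyte probes, against 17% of all probes. After centring, 2 T lymphocyte probes were the only ones of these lists called lower at day 10 (4.09% of all probes). A ratio holds no level, so these markers do not show which cells the RNA came from, their part in the members' values was not tested, and fewer cells of a type cannot be told apart from less RNA per cell.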

How the data were processed

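The deposited table gives 1 log ratio per probe and array, for 171 microRNA probes. Another 7 probes, for transfer and small nuclear RNAs, were left out. The deposited values were taken as log2 ratios of Cy5 over Cy3; how the authors made them (log base, numerator, scanner, background correction, normalization) is not given in the sources used here. As deposited, opposite-dye arrays correlated across microRNA probes at r = -0.66 (day 3) and r = -0.43 (day 10), so the values had not been turned. Groups and dyes came from the labels. Arrays with activated RNA in Cy3 were multiplied by -1 and dye pairs averaged, each pair counting as 1 replicate. The limma fit over 5 arrays instead took the arrays of a pair singly. Fits used limma 3.58.1 (R 4.3.3) with moderated 2-sided tests, Benjamini-Hochberg adjusted over 171 probes at a threshold of 0.05. They were also run on simulated data with the same effects at all times and no shifts between arrays. That run could check only that the fits find simulated effects, and not the calls given here. The size rule (log2 ratio of at least 1, same sign on both arrays of a pair, or no overlap between pairs) is no test. The number of arrays limits the precision. Alternatives were median centring, a common spread, single arrays or probes left out, the dye effect taken off overnight, and the fit over 5 arrays. Named besides the members were other probes of the locus, the 3 probes nearest to each set's mean profile, and 1org-155 and 1org-150. The members, lists and rules were chosen with earlier results of these data known.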

Additional observations from a re-analysis of the deposited data

Results flagged for a closer look

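For 4 of the 5 probes the log2 ratio differed between day 10 and day 3 in the limma fit over 5 arrays as deposited, where 43.9% of all probes were lower at day 10 and 8.77% higher. The difference was -2.74 for 1org-127 (adjusted p = 0.000271), -2.25 for 1org-136 (adjusted p = 0.00218), -1.77 for 1org-300 (adjusted p = 0.0155) and -1.57 for 1org-154 (adjusted p = 0.0294). For 1org-127 and 1org-300 both day 3 arrays were also above 0 and both day 10 arrays below it. After centring the limma fit called 1org-127 alone (adjusted p = 0.0261), with adjusted p = 0.146 for 1org-136, 0.519 for 1org-300 and 0.718 for 1org-154. The array medians, 0.20 and 1.42 at day 3 and -0.51 and -0.38 at day 10, moved with these differences.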

How the results depend on the processing

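Median centring, like centring with a common spread, left 1 of the 3 members higher at day 3, 1 of the 3 lower at day 10 than at day 3, and 0 of the 5 lower overnight. Over all probes the shares by these rules were 15.2%, 13.5% and 4.09% with median centring. With the common spread they were 14%, 11.1% and 8.77%. Overnight, median centring turned 1org-136 to 0.036 and 1org-154 to 0.016, and the common spread turned them to 0.0456 and 0.0203. No overnight call is given for the limma fit over 5 arrays, which has 1 array at that time. With single arrays left out, the members higher at day 3 ranged from 2 to 5, those lower at day 10 from 1 to 2 (0 with both arrays), and those lower at day 10 than at day 3 from 3 to 5. The 5 came from leaving out the day 3 Cy5 array, and the 1 and 2 from leaving out the day 10 Cy5 and Cy3 arrays. On the day 3 Cy3 array, which then stood alone, the median over all probes was itself 1.42. Shares over all probes were not counted with arrays left out, so these counts are no result about the members. The pair minus the Mirg group ranged from -0.26 to 2.28 at day 3 and from -1.04 to 1.14 at day 10 over the single arrays. Overnight it was 0.34 with a common spread, 0.30 without 1org-127, 0.24 without 1org-136, 0.20 without 1org-134, 0.41 without 1org-154, 0.20 without 1org-300 and -0.91 with the dye effect taken off. Its sign at day 3 was the same with any 1 probe left out (0.68 to 1.34). The cause of these changes was not tested. No member passed limma over all times in any of the 4 alternatives run. No paired analysis was possible because the labels number the arrays 1 to 5 with no number shared between times. Signal over background is unknown here, so how far it limits these values cannot be said.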
